A study of Mus musculus with 10 samples.

Results

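The Reg family lectins were examined in the colon of mice with checkpoint inhibitor colitis. The family was represented by 7 genes (Reg1, Reg2, Reg3a, Reg3b, Reg3d, Reg3g and Reg4) of the 19505 genes measured. They were matched by the gene symbol of the array platform, and each had 1 probe set. The values came from 10 single-colour Clariom S Mouse arrays of total RNA from the whole colon, 1 array per sample. All samples were from wildtype C57BL/6 mice that had received 3% dextran sulfate sodium (DSS, which injures the colonic epithelium) in the drinking water and an intraperitoneal antibody against PD1, so both groups carried the colitis. In the 5 ECP samples the mice had in addition been given donor cells treated by extracorporeal photopheresis (ECP, exposure of leukocytes to a photosensitiser and ultraviolet A light). The 5 control samples had the colitis without the transfer. Ages and sexes are not given in the labels, no group without colitis was analysed here, and no label ties an array to its own mouse. The p-values therefore cover the spread among these samples, which may be technical in part.

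The family was selected on measured values, since levels and group differences of several members in these same arrays were known. Their own differences are given as a description and support nothing further.

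Reg proteins are small secreted proteins built around a C-type lectin fold. REG3B and REG3G are antimicrobial proteins of the gut epithelium: REG3G binds peptidoglycan of Gram-positive bacteria, and both genes are induced by microbial contact, by IL-22 and by STAT3, most of all during colitis. REG1 and REG2, first found in regenerating islets, are made by pancreatic acinar cells, which also make REG3A and REG3D in the mouse, while REG4 is made by secretory cells of the colonic crypt.

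Values are log2 RMA intensities, on which a difference of 1 is a doubling of intensity. Levels of different probe sets were not set against each other, because each has its own probes. Across the array set, values ran from 2.81 to 13.57, array medians from 6.94 to 6.98, and correlations between arrays over all genes from 0.977 to 0.996. Of 4 measured genes that mark the large intestine, Cdx2, an intestinal transcription factor, lay between 10.58 and 11.08, and Car1, a carbonic anhydrase of colonocytes, between 12.87 and 13.35. The homeobox genes of the distal colon were lower or variable, Hoxd13 at 4.47 to 5.09, near the low end of the scale, and Hoxb13 at 5.96 to 8.51. The mean level of 9 small intestinal enterocyte genes stayed between 5.85 and 6.25. In bulk tissue, fewer cells of a type and less RNA per cell cannot be told apart.

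Members were divided by 1 measured criterion, whether control replicates 1 and 4 both lay above the other 8 arrays. These 2 arrays are the ones on which pancreatic acinar enzyme transcripts were high. The criterion held for 4 members, Reg1, Reg2, Reg3a and Reg3d, and not for Reg3b, Reg3g and Reg4. Of all 19505 genes, 3.55% met it. The division uses the values described here, so it is a description and no test of it is given. The member just inside was Reg3d, at 7.22 in control replicate 1 against at most 5.15 on the other 8 arrays. The member just outside was Reg3b, at 13.10 and 13.04 in control replicates 1 and 4, below the 13.35 of ECP replicate 5.

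The start regions of 4 members of a single gene cluster are shown. Reg1 and Reg2 met the criterion of this division, and Reg3b and Reg3g did not. Reg3a and Reg3d, which also met it, are not shown. In the RefSeq annotation of GRCm38.p6 the 6 members on chromosome 6 lie in the order Reg3b, Reg3d, Reg3a, Reg2, Reg1 and Reg3g, with the pseudogene Gm52853 before Reg3g, and Reg4 is on chromosome 3. The 4 genes that were high in control replicates 1 and 4 are thus adjacent, with Reg3b and Reg3g at the edges of the cluster. Each sequence is the 250 bases upstream of the annotated start, 5′ to 3′ on the gene's own strand, from RefSeq (GRCm38.p6), which held all 7 members. They lie at chr6:78425733-78425982 (plus strand) for Reg1, chr6:78404905-78405154 (plus strand) for Reg2, chr6:78370635-78370884 (plus strand) for Reg3b and chr6:78468875-78469124 (minus strand) for Reg3g.
Reg1: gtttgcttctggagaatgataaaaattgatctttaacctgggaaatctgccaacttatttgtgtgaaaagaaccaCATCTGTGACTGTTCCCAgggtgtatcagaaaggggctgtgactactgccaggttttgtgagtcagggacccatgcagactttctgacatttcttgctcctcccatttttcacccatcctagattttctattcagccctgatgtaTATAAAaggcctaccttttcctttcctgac
Reg2: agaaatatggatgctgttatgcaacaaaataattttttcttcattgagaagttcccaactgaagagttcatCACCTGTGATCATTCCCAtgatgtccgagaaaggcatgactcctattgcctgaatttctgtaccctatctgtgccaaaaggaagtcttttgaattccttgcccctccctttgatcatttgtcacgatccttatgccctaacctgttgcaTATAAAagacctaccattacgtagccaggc
Reg3b: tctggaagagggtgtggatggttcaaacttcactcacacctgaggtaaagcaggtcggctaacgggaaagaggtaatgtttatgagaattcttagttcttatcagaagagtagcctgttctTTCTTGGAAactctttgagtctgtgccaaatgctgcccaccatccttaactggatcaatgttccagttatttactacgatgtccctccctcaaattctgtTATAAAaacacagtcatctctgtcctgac
Reg3g: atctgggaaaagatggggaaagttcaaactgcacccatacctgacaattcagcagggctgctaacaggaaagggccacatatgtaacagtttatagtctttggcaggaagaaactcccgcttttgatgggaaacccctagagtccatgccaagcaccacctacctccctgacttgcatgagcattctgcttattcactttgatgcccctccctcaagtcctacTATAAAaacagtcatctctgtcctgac
Capitals mark 3 motifs, which were chosen after these sequences had been read. In Reg1 and Reg2 the long capital stretch is an E-box, CANNTG, followed after 6 bases by TTCCCA. The pancreatic factor PTF1 is known to bind such a pairing of an E-box with a TC box, about a turn of the helix apart. With the base before the start counted as -1, the pairing lay from -175 to -158 in Reg1, as CATCTGTGACTGTTCCCA, and from -179 to -162 in Reg2, as CACCTGTGATCATTCCCA. Searched on both strands, it was found in 2 of the 7 members, and Reg3a and Reg3d, high on the same arrays, lacked it. Over all upstream windows of the same length it was in 29 of 32851 (0.0883%), but in 0 of the 17 acinar enzyme genes with a window. Because the pairing was chosen after these sequences had been read, its presence in Reg1 and Reg2 was given and its rarity supports nothing. The E-box of the letters CACCTG, which overlaps the pairing in Reg2, was present in 5 members (Reg2, Reg3a, Reg3b, Reg3d and Reg4), in 9 of the 17 acinar enzyme genes and in 17.2% of all windows.

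The capital stretch from -129 to -121 in Reg3b, TTCTTGGAA, matches TTCNNNGAA, the palindromic letters that STAT factors bind. On both strands it occurred in 7.02% of all windows and, among the members, in Reg3b and Reg3d. Reg3g held none in this window, which says nothing of sites elsewhere. The capitals nearest the start are a TATA box, TATAAA, found on the gene's own strand in Reg1, Reg2, Reg3b and Reg3g, and on either strand in 12.4% of windows. Aligned over their windows, Reg3b and Reg3g shared 68.4% of positions, whereas the other 20 pairs of members shared 43.8% to 56.2%. A match is a description of letters, and binding was not measured.

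Reg1, the gene of the lithostathine that acinar cells secrete into pancreatic juice, read 4.03, 3.80, 3.86, 3.82 and 3.81 in ECP replicates 1 to 5. In control replicates 1 to 5 it read 9.84, 3.89, 3.72, 12.02 and 4.11. Only control replicates 1 and 4 were high, and the remaining 3 controls overlapped or bordered the ECP values. The group means were 3.86 ± 0.09 (SD, n = 5) with ECP and 6.72 ± 3.92 (SD, n = 5) in controls. The difference, ECP minus control, was -2.85 with SE 1.45, less than the SD of the controls. Without control replicates 1 and 4 the difference was -0.04 with SE 0.10.

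Reg2, a paralogue of Reg1 that acinar cells and regenerating islets express, read 4.32, 4.70, 4.68, 4.67 and 4.82 with ECP. The controls read 10.09, 4.26, 4.81, 11.80 and 4.28 in order of replicate. Again the same 2 controls were high and the rest lay with the ECP arrays. Means were 4.64 ± 0.19 (SD, n = 5) and 7.05 ± 3.62 (SD, n = 5), a difference of -2.41 with SE 1.34. Leaving out control replicates 1 and 4 turned the sign, to 0.19 with SE 0.14.

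Reg3a, a Reg3 lectin of the pancreas in the mouse, read 4.17, 4.92, 4.73, 4.89 and 4.98 with ECP and 7.51, 4.93, 4.43, 9.33 and 4.68 in controls. Its pattern over the controls was that of Reg1 and Reg2. Means were 4.74 ± 0.33 (SD, n = 5) and 6.18 ± 2.15 (SD, n = 5), and the difference was -1.44 with SE 0.81. Without the 2 high controls it was 0.05 with SE 0.18.

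Reg3d, its neighbour on the opposite strand, read 4.86, 5.01, 4.89, 4.97 and 4.85 with ECP and 7.22, 4.97, 5.15, 9.38 and 5.07 in controls. The ECP values lay within a narrow band, and 1 control, replicate 2, lay inside it. Means were 4.92 ± 0.07 (SD, n = 5) and 6.36 ± 1.93 (SD, n = 5), a difference of -1.44 with SE 0.72. Without control replicates 1 and 4 the difference was -0.14 with SE 0.07.

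**Figure D1:**
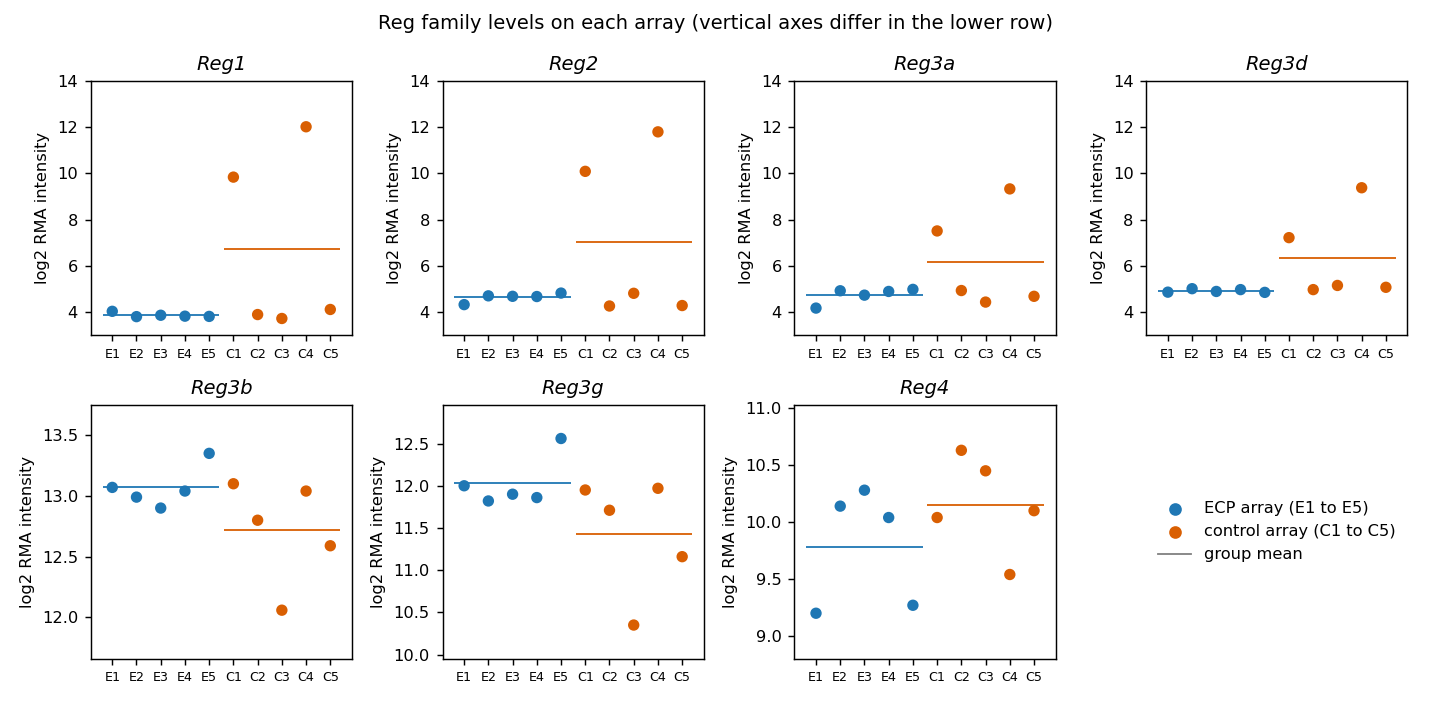
Log2 RMA intensity of each Reg gene (vertical axis) on each of the 10 arrays (horizontal axis; E1 to E5, ECP replicates 1 to 5; C1 to C5, control replicates 1 to 5), with horizontal lines at group means; the lower row uses its own, narrower axes. Reg1, Reg2, Reg3a and Reg3d are high in C1 and C4 alone, while Reg3b and Reg3g have their lowest values in C3 and C5.

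On the other 8 arrays these 4 genes read near the low end of the scale, with medians of 3.84 for Reg1, 4.67 for Reg2, 4.81 for Reg3a and 4.97 for Reg3d. Over those medians, Reg1 was 6.00 log2 units higher in control replicate 1 and 8.18 higher in control replicate 4. For Reg2 the 2 arrays were 5.42 and 7.13 higher, for Reg3a 2.71 and 4.52, and for Reg3d 2.25 and 4.41. These are differences of intensity. Near the floor they give no fold change of transcript, and the 4 probe sets cannot be ranked by them. Control replicate 4 exceeded control replicate 1 by 1.71 to 2.18 log2 units in all 4. Reg3b, Reg3g and Reg4 lay between -0.58 and 0.15 log2 units of the same median on these 2 arrays.

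The acinar enzyme genes, digestive hydrolases and their zymogens, had the same 2 high arrays. Of 21 measured genes, 19 lay higher in control replicates 1 and 4 than on any of the other 8 arrays. The exceptions were Sycn, a zymogen granule protein, at 10.01 in control replicate 1 and 11.10 in control replicate 4, and Spink1, a trypsin inhibitor that intestinal epithelium also makes, at 11.28 to 11.68 throughout. The median rise over the other 8 arrays was 3.49 in control replicate 1 and 5.82 in control replicate 4, and the step between the 2 arrays had a median of 1.95, which the 4 Reg genes span. Ctrb1, a chymotrypsinogen, reached 12.15 and 13.57, and Amy2a5, a pancreatic amylase, 12.60 and 13.32. All 21 were lower with ECP by sign, 7 of them with an unadjusted p under 0.05, against 2.77% of all genes, and 0 passed the adjusted threshold in limma.

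Beside the enzymes, other pancreatic markers moved less. Of 4 acinar transcription factors, 0 were highest on both arrays, although Rbpjl, the acinar subunit of PTF1, was at 7.03 in control replicate 4 and at most 5.53 elsewhere. Ptf1a, the basic helix-loop-helix subunit, lay between 3.84 and 4.48. Among 10 measured islet genes 1 followed the pattern, Ins2, at 7.69 and 8.80 against 6.36 to 6.89 on the other 8 arrays. Averaged over the enzymes, control replicate 1 stood at 9.68, control replicate 4 at 11.59 and the rest at 5.96 to 6.65. The part of pancreatic tissue in the Reg differences was not tested beyond leaving out these arrays and fitting this level as a covariate, which gave Reg1 0.29, Reg2 0.45, Reg3a 0.28 and Reg3d 0.09.

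Control replicate 5 stood between. For 10 of the 21 acinar genes it was above the other 7 arrays, as for Amy2a5 at 8.68 (at most 5.57 on those 7) and Ctrb1 at 6.46 (at most 5.42). Among the Reg genes this held for Reg1 alone, at 4.11 against at most 4.03, a small step near the low end of the scale.

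**Figure D2:**
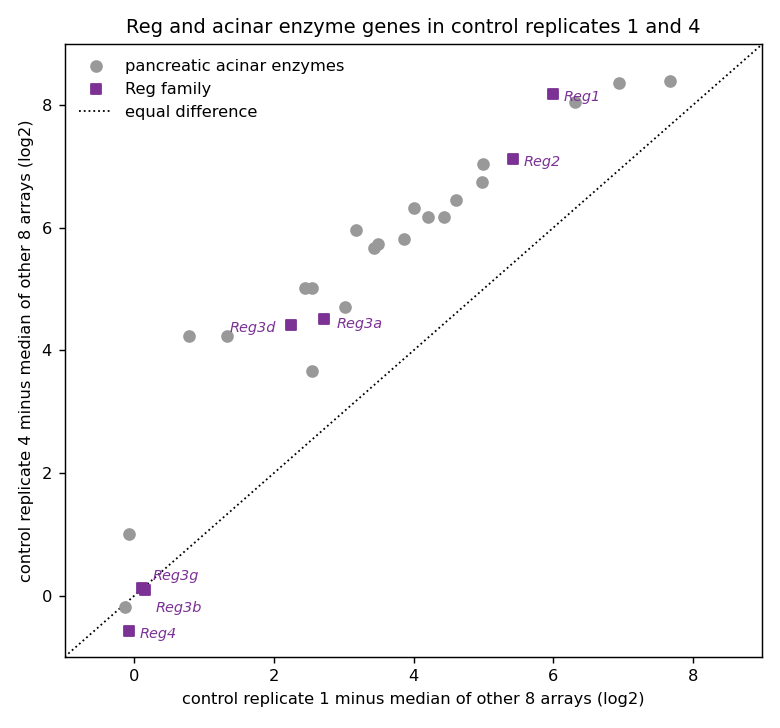
Level in control replicate 4 (vertical axis) against control replicate 1 (horizontal axis), each as the log2 difference from the median of the other 8 arrays, for 21 acinar enzyme genes (grey circles) and 7 Reg genes (purple squares); the dotted line marks equal differences. Reg1, Reg2, Reg3a and Reg3d lie in the band of the acinar genes above the line, and Reg3b, Reg3g and Reg4 lie near the origin.

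The genes outside the family most like each member by Pearson's r over the 10 arrays, 5 per member and taken as a description, divided in the same way. For Reg1 they were Prss2, Try5, Pnliprp1, Try4 and Rnase1 (r of 0.995 to 0.997), trypsinogens, a lipase-related protein and pancreatic ribonuclease. The lists of the 4 members shared many genes: they held 12 distinct genes, of which 10 were on the acinar list, with r of 0.986 to 0.997. The other 2 were in the list of Reg3a, Pdia2, a protein disulfide isomerase of the pancreas, and Gm10334. These values rest on control replicates 1 and 4: over the other 8 arrays, 0 of the 20 nearest genes were acinar, and Reg3a, the most variable of the 4 there, lay between 4.17 and 4.98. For Reg3b, Reg3g and Reg4, the lists over 10 arrays held 11 distinct genes, 0 of them acinar.

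Reg3b and Reg3g, the antimicrobial lectins, were near the top of the measured scale in both groups and did not meet the criterion of the division. Among the controls alone, however, both genes were highest in replicates 1 and 4, where acinar transcripts were high. What part pancreatic tissue had in these levels was not tested. Reg3b read 13.07, 12.99, 12.90, 13.04 and 13.35 with ECP and 13.10, 12.80, 12.06, 13.04 and 12.59 in controls. Control replicates 2, 3 and 5 lay below every ECP array, and replicates 1 and 4 lay inside the ECP range. Means were 13.07 ± 0.17 (SD, n = 5) with ECP and 12.72 ± 0.42 (SD, n = 5) in controls. The difference was 0.35 (1.27-fold) with SE 0.17 and a 95% interval of -0.03 to 0.73, and it did not pass the test (limma, adjusted p = 0.996).

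Reg3g read 12.00, 11.82, 11.90, 11.86 and 12.56 with ECP and 11.95, 11.71, 10.35, 11.97 and 11.16 in controls. Control replicates 2, 3 and 5 were again the ones below all ECP arrays, replicate 3 by the widest margin. With means of 12.03 ± 0.31 (SD, n = 5) and 11.43 ± 0.69 (SD, n = 5), the difference was 0.60 (1.52-fold) with SE 0.28 and a 95% interval of -0.01 to 1.22 (limma, adjusted p = 0.989). Near the top of the scale an array can compress differences, and saturation was not assessed here because scanner values were not used.

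Which controls were left out decided the size of both differences. Without control replicates 1 and 4, where acinar transcripts were high, Reg3b differed by 0.58 with SE 0.16 (limma, adjusted p = 0.512) and Reg3g by 0.96 with SE 0.27 (limma, adjusted p = 0.512). Without control replicates 3 and 5, the 2 with the lowest values and therefore chosen after these had been seen, Reg3b differed by 0.09 with SE 0.11 and Reg3g by 0.15 with SE 0.16. Leaving out control replicate 3 alone gave 0.19 for Reg3b and 0.33 for Reg3g. The group difference thus lay in 2 or 3 of the 5 controls. Control replicates 3 and 5 were picked for the low values of Reg3b and Reg3g, so being lowest for 2 of 7 members was given. They were the lowest arrays for 2.77% of all genes.

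Reg4, a lectin that marks deep crypt secretory cells, ran the other way. It read 9.20, 10.14, 10.28, 10.04 and 9.27 with ECP and 10.04, 10.63, 10.45, 9.54 and 10.10 in controls. ECP replicates 1 and 5 were the lowest arrays, control replicate 4 followed, and the groups overlapped, with 3 controls inside the ECP range and 2 above it. Means were 9.79 ± 0.51 (SD, n = 5) and 10.15 ± 0.42 (SD, n = 5), a difference of -0.36 with SE 0.25 and a 95% interval of -0.91 to 0.18 (limma, adjusted p = 0.998). Without control replicates 1 and 4 it was -0.61 with SE 0.26 (limma, adjusted p = 0.729).

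**Figure D3:**
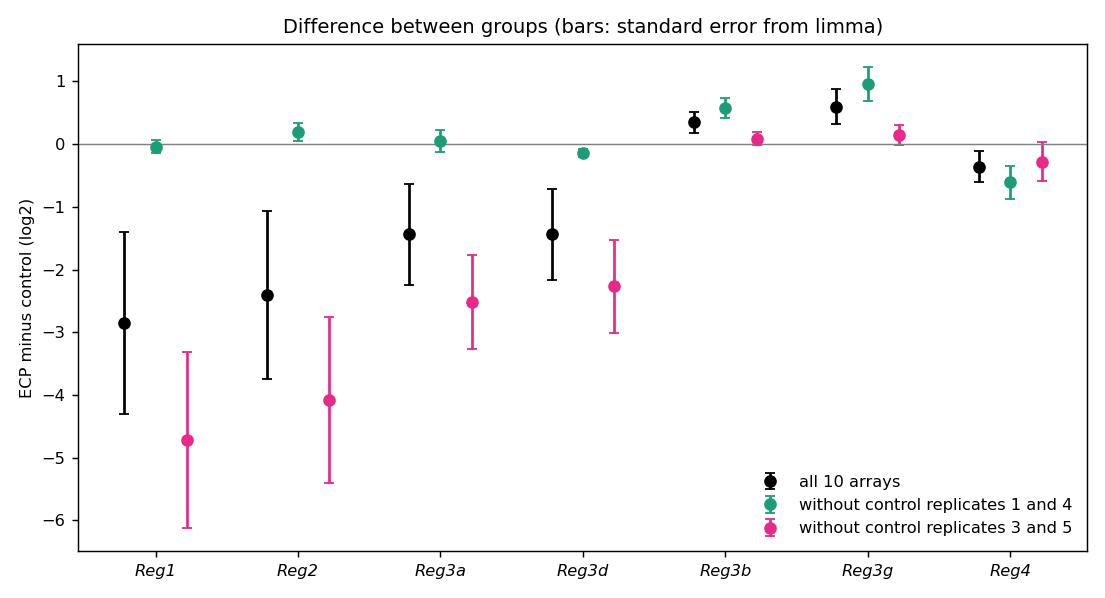
ECP minus control (vertical axis, log2) for each Reg gene (horizontal axis), with bars of 1 standard error from limma, over all 10 arrays (black), without control replicates 1 and 4 (green) and without control replicates 3 and 5 (pink). Reg1, Reg2, Reg3a and Reg3d lie near 0 without control replicates 1 and 4, and Reg3b and Reg3g lie near 0 without control replicates 3 and 5.

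Over the whole family, 0 of 7 members passed the adjusted threshold, where 0% of all genes did, and their adjusted p in limma was 0.989 to 0.998. At an unadjusted p under 0.05 the counts were 0 of 7 members and 5.08% of all genes, of which 2.31% were higher and 2.77% lower with ECP. Groups that did not overlap were seen in 0 members and in 1.22% of all genes. The sign was lower with ECP in 5 members and higher in 2, with a median difference of -1.44 against 0.008 over all genes, and the 4 members that set this median are those that were high in control replicates 1 and 4.

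Across arrays, Reg3b and Reg3g ran together and Reg4 ran opposite to them. The correlations below are a description with no test, because these members were chosen with the same values known, and the 10 arrays pool both groups. Reg3b and Reg3g had r = 0.99 and rho = 0.93 over the 10 arrays. Without control replicates 3 and 5, the arrays farthest from the median of Reg3b, r was 0.92.

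Reg4 was low on arrays where the other 2 were high. With Reg3b it had r = -0.63 and rho = -0.81, and r = -0.79 without control replicates 3 and 5. With Reg3g it had r = -0.60 and rho = -0.82, and r = -0.74 without those arrays. ECP replicate 5 carried the highest Reg3b and Reg3g and the second lowest Reg4. The opposite group differences of Reg4 and the other 2 enter these values, and with 5 arrays in each group they were not computed within groups.

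**Figure D4:**
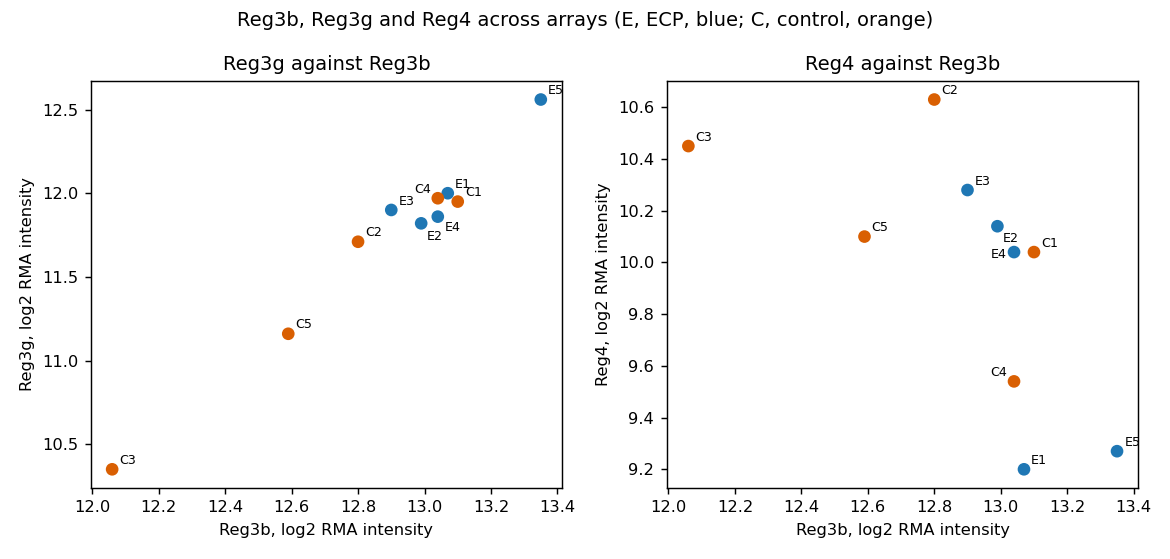
Log2 RMA intensity of Reg3g (left, vertical axis) and of Reg4 (right, vertical axis) against Reg3b (horizontal axes), with 1 point per array (blue, ECP, E1 to E5; orange, control, C1 to C5). Reg3g is higher where Reg3b is higher (r = 0.99), and Reg4 is lower there (r = -0.63).

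Family members were left out of the likeness search, since Reg3b and Reg3g would head each other's lists. Among all other genes over the 10 arrays, both had Sema6d, a transmembrane semaphorin, and Cct5, a chaperonin subunit, as their 2 nearest genes, with r of 0.960 and 0.942 for Reg3b and 0.933 and 0.946 for Reg3g. Ak4, a mitochondrial adenylate kinase, and Raph1 were also among the 5 nearest of both. Ero1a completed the list of Reg3b, and Plet1, an epithelial surface protein, that of Reg3g. Over the 8 arrays without control replicates 1 and 4, Cct5 and Sema6d stayed among the nearest 5, at r of 0.988 and 0.973 for Reg3b and 0.972 and 0.959 for Reg3g. The nearest genes of Reg4 were Osbpl3, an oxysterol binding protein, at r = 0.928, then Polk, Igsf23, Mtfr1 and Peg12. Their ECP minus control differences were small, between -0.20 and -0.04 for these 5.

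Inducers of the Reg3 genes were measured beside them. Of 23 measured genes of IL-22, IL-6 and IL-17 signalling, 13 were higher and 10 lower with ECP, with a median difference of 0.02 against 0.008 over all genes, and 17 were higher and 6 lower without control replicates 1 and 4. In limma 0 passed the adjusted threshold, and 1 had an unadjusted p under 0.05, Il23a, a subunit of IL-23, with a difference of 0.31 and SE 0.13 (limma, adjusted p = 0.951). Il23a read only 4.21 to 4.94, near the low end of the scale. Il22, the cytokine that induces Reg3g, was at 5.77, 5.72, 5.59, 5.76 and 6.06 with ECP and 5.55, 5.86, 5.49, 5.25 and 5.58 in controls. These values overlap and gave a difference of 0.24 with SE 0.11 (limma, adjusted p = 0.996). Il17a differed by 0.19 with SE 0.09 and Il6 by 0.38 with SE 0.32, while Stat3 stood at 10.16 in both groups. Extl3, a glycosyltransferase proposed as a Reg receptor, differed by 0.09 with SE 0.09.

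Other genes, listed as epithelial targets of IL-22 and STAT3, had a direction that depended on the controls included. In bulk tissue the cells that made these transcripts cannot be told apart, so the values are not of epithelium alone. Over all 10 arrays, of 18 measured, 11 were higher and 7 lower with ECP, the median difference was 0.03, and the smallest adjusted p was 0.996 in limma. The smallest unadjusted p belonged to Cebpd, an acute-phase transcription factor, with a difference of -0.39 and SE 0.19, opposite in sign to Reg3b and Reg3g. Bcl3 differed by -0.30, Saa1, a serum amyloid A, by 0.15 and Socs3, a STAT3 feedback inhibitor, by -0.37.

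Without control replicates 1 and 4, where Reg3b differed by 0.58 and Reg3g by 0.96, 13 of the 18 were higher and 5 lower. The median difference was 0.17, against -0.002 over all genes. Nos2 then differed by 1.09 and Lcn2 by 0.87. S100a8, a calprotectin subunit, went from -0.09 to 1.05 and Lrg1, an acute-phase glycoprotein, from -0.07 to 0.58. Without control replicate 5 the median was -0.11, and without control replicate 3 it was -0.05.

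Over the 10 arrays of both groups, 10 of these 18 genes (55.6%) had control replicates 3 and 5 as their 2 lowest arrays. Over all genes the share was 2.77%. Control replicates 3 and 5 were picked because Reg3b and Reg3g were lowest there. The list was chosen with earlier results of these data known, so the share is a description and supports nothing further. The 10 genes were Fut2, Lrg1, S100a8, S100a9, Saa2, Saa3, Duoxa2, Lcn2, Nos2 and Steap4, most of them named here after their values had been seen. Lcn2, the iron-scavenging lipocalin, was at 9.75, 9.06, 8.75, 9.67 and 9.60 with ECP and 8.75, 9.34, 8.68, 11.11 and 7.46 in controls. Nos2, the inducible nitric oxide synthase, was at 7.75 and 7.39 in control replicates 3 and 5 and lay between 8.96 and 10.22 elsewhere. Of the 10 arrays, both were highest in control replicate 4, whereas Reg3b and Reg3g were highest in ECP replicate 5. Averaged over the 18 genes, control replicate 3 stood at 9.37, control replicate 5 at 9.01 and control replicate 4 at 10.42, with 9.62 to 9.97 on the rest.

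**Figure D5:**
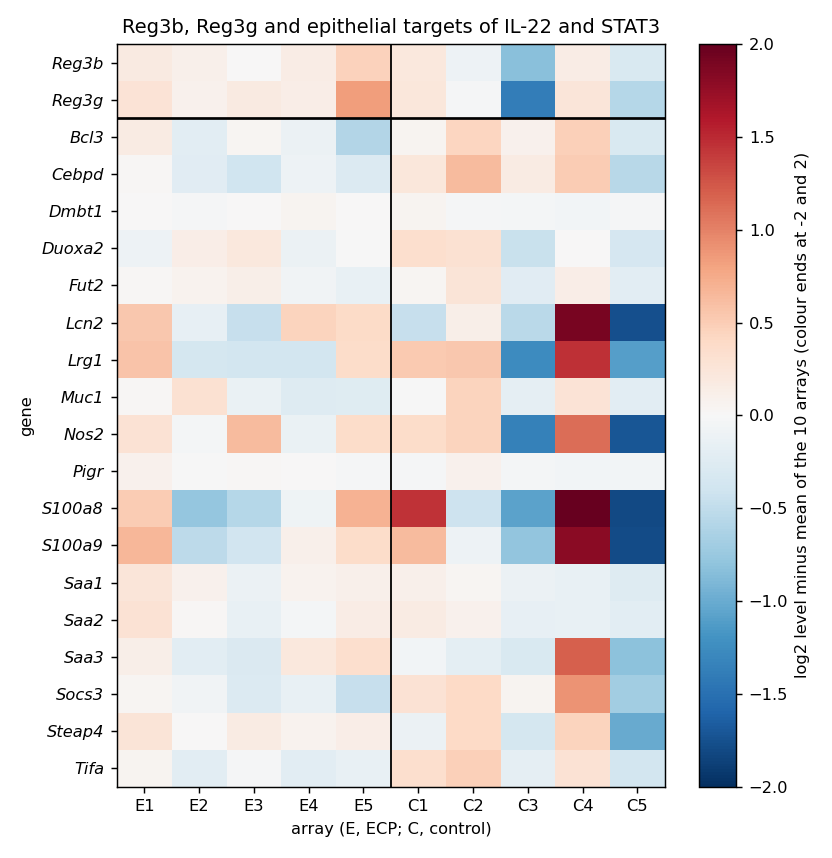
Log2 level minus the mean of the 10 arrays (colour, ending at -2 and 2) for Reg3b, Reg3g and 18 genes listed as epithelial targets of IL-22 and STAT3 (vertical axis) on each array (horizontal axis; E, ECP; C, control). C3 and C5 are the 2 lowest arrays for Reg3b, Reg3g and 10 of the targets. C4 is the highest array for several targets, whereas the 2 Reg genes are highest in E5.

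Other secreted antimicrobial proteins differed little. Of 11 measured, 8 were higher and 3 lower with ECP, with a median difference of 0.03, and 0 passed in limma. Retnlb, a goblet cell protein against Gram-negative bacteria, was at 12.04 ± 0.12 (SD, n = 5) with ECP and 11.88 ± 0.25 (SD, n = 5) in controls. Defb1, a constitutive beta defensin, differed by -0.17 with SE 0.08 (limma, adjusted p = 0.991), Camp, a cathelicidin, by -0.21, and Pglyrp1, a peptidoglycan recognition protein, by 0.08. Defb1 read only 4.23 to 4.65, near the low end of the scale. The counts were 4 higher and 7 lower without control replicates 1 and 4.

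Of 9 Paneth cell genes, 4 were higher and 5 lower, and 2 had an unadjusted p under 0.05. Mmp7, a protease that activates defensins, was 0.55 higher with ECP with SE 0.25 (limma, adjusted p = 0.967), and its highest array was ECP replicate 5 at 8.58, as for Reg3b and Reg3g. Defa24, an alpha defensin, differed by -0.19 with SE 0.09 (limma, adjusted p = 0.966), but read only 4.08 to 4.54, near the low end of the scale. Lyz1, the Paneth cell lysozyme, differed by -0.12 with SE 0.15. The mean level of the 9 genes lay between 5.71 and 5.98 on every array.

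The cells that make Reg4 were followed through other genes of secretory cells. Of 6 deep crypt secretory genes, 3 were higher and 3 lower with ECP, and the median difference was -0.05, with -0.14 to 0.07 when single arrays were left out. All 6 were lower, with a median of -0.20, without control replicates 1 and 4, where Reg4 differed by -0.61. Mptx1, a secreted pentraxin on that list, was at 7.38, 8.74, 7.40, 5.53 and 4.55 with ECP and 5.69, 9.15, 8.64, 4.76 and 7.50 in controls, a difference of -0.43 that became -1.71 without control replicates 1 and 4. Its 2 highest controls, replicates 2 and 3, were also the 2 highest for Reg4, while ECP replicate 1 was low for Reg4 and not for Mptx1. Dll4, a Notch ligand, differed by -0.12 with SE 0.07. For 11 measured enteroendocrine genes the counts were 9 higher and 2 lower with ECP, with a median difference of 0.15, opposite in sign to Reg4. Without control replicates 1 and 4 they were 3 higher and 8 lower, with a median of -0.18. Among 10 goblet cell genes 8 were higher and 2 lower, and 2 were higher and 8 lower without control replicates 1 and 4. Muc2, the main secreted mucin, was at 13.50 ± 0.06 (SD, n = 5) and 13.46 ± 0.13 (SD, n = 5), and Best2, a goblet cell channel, differed by -0.43 with SE 0.21 (limma, adjusted p = 0.995).

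Other differences between arrays lay beside these. The mean level of 9 lymphocyte genes was 8.06 in control replicate 4, 6.73 in ECP replicate 1 and 5.91 to 6.19 elsewhere. These 2 arrays and ECP replicate 5 had the lowest Reg4. The colonocyte level was 10.97 in control replicate 4 against 11.39 to 11.65 on the other arrays, and smooth muscle genes were lowest in control replicates 1 and 4, at 9.74 and 10.08 against 10.40 to 11.09. ECP replicate 5 had the lowest Hoxb13, at 5.96 against 6.56 to 8.51 elsewhere. The part of tissue composition or of sampled colon region in the Reg values was not tested.

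The paralogues are similar in sequence, and probe sequences were not used here. Shared hybridisation between paralogues was not tested.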

How the data were processed

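The authors deposited log2 intensities per probe set. The submitters' processing notes name oligo and RMA, and versions, options and genome build were not given in the sources used here. Because RMA gives every array 1 distribution, a shift of most genes together cannot be seen. Of 22203 probe sets, 19572 had 1 gene symbol in the platform annotation, 2631 were unnamed here and 0 had several. For 55 genes with several probe sets, none of them a Reg gene, the one with the highest mean was used, which left 19505 genes.

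Groups came from the sample titles, 5 ECP and 5 control arrays. All genes were fitted with limma 3.58.1 in R 4.3.3 (lmFit, eBayes, two-sided, without covariates or a filter on dim genes). P-values were adjusted by Benjamini-Hochberg over 19505 genes, called under 0.05, and the script was tested on simulated data. Alternatives were median centring, renewed quantile normalisation, filters on dim genes, the mean of probe sets, trend and robust options, array weights, a replicate block, an acinar covariate and left-out arrays, of which 2 (without control replicates 3 and 5, with and without ECP replicate 5) were added after seeing the values. The number of arrays limits the precision.

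The members and 18 gene lists (183 genes, 170 measured) were chosen with earlier results of these data known. Named were all members, up to 4 genes with the smallest p in each described list, a fixed set of cytokine, mucosal and pancreatic genes, and the 5 genes most correlated with each member over 10 and over 8 arrays. Sequences and motifs were handled in Python 3.11.15 with biopython 1.88, and figures were drawn with matplotlib 3.10.9.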

Additional observations from a re-analysis of the deposited data

Results flagged for a closer look

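Within-group outliers were sought for each of the 7 Reg genes in both groups, 14 groups of 5 arrays in all, by the gap of the highest or lowest array to its neighbour as a share of the group's range, with a critical value of 0.71. Of these, 2 passed, and chance gives about 1 in 20. ECP replicate 5 had Reg3g at 12.56, with the next ECP array at 12.00, a ratio of 0.75. ECP replicate 1 had Reg1 at 4.03, with the next ECP array at 3.86, a ratio of 0.72, a small gap near the low end of the scale. The controls with Reg1, Reg2, Reg3a and Reg3d high were 2 of 5 and so masked each other in this search.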

How the results depend on the processing

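No Reg gene passed the adjusted threshold under any alternative run, so the count of Reg genes called stayed at 0. The count over all genes, 0 with every gene tested, was 1 without the lowest quartile of genes, 7 without genes below the median, 1 with trend and robust options, and 0 to 1 when single arrays were left out, with the 1 reached without control replicate 3. The filter at the median also removed Reg1, Reg2, Reg3a and Reg3d, which have no value there.

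Signs reversed for the 4 genes high in control replicates 1 and 4. Without both arrays, Reg2 was 0.19 and Reg3a 0.05. Without control replicates 1, 4 and 5, Reg1 was 0.06, Reg2 0.10 and Reg3a 0.05. With the acinar level as a covariate, Reg1 was 0.29, Reg2 0.45, Reg3a 0.28 and Reg3d 0.09. Leaving out control replicate 4 alone took Reg1 from -2.85 to -1.53, Reg2 from -2.41 to -1.22, Reg3a from -1.44 to -0.65 and Reg3d from -1.44 to -0.68, and array weights gave -1.28, -0.95, -0.58 and -0.70. Reg3b ranged from 0.19 to 0.44 and Reg3g from 0.33 to 0.74 over single arrays left out, lowest without control replicate 3. Both were 0.02 without ECP replicate 5 and control replicates 3 and 5. They were largest without control replicates 1, 4 and 5, at 0.64 for Reg3b and 1.00 for Reg3g. Reg4 ranged from -0.52 to -0.22 over single arrays left out.

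With the replicate number as a block, Reg3b stayed at 0.35 (limma, adjusted p = 1), Reg3g at 0.60 (limma, adjusted p = 1) and Reg1 at -2.85 (limma, adjusted p = 1). Same-numbered arrays deviated together with correlations of only -0.24 to 0.08, so the numbers do not show a pairing.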

Other observations

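On the 8 arrays other than control replicates 1 and 4, the genes outside the family most like Reg4 were Lgals12 (r = 0.981), Adm2, Niban3, Osbpl3 (r = 0.946) and Prss58. Of these, Osbpl3 was also the nearest over 10 arrays. For Reg3g they were Slc25a1 (r = 0.973), Cct5, Olfr1184, Sema6d and Tbcd. For the 4 members high in control replicates 1 and 4, the nearest genes over these 8 arrays had r of 0.918 to 0.966, and 0 of those 20 genes were on the acinar enzyme list. These 4 members read near the low end of the scale there. Every list here holds the highest r among all genes outside the family over only 8 arrays, so a high r alone shows no shared regulation.

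ECP replicate 5, which had the highest Reg3b and Reg3g, also had the highest mean level of 9 small intestinal enterocyte genes, 6.25 against 5.85 to 6.05 on the other arrays. Sis, sucrase-isomaltase, was at 5.93 there and at most 5.44 elsewhere, and Lct, lactase, was at 6.16 and at most 6.09. Not all of the 9 genes followed: Treh, Rbp2 and Apoa4 were each highest on a control array. Gata4 was at 7.31 in both ECP replicate 5 and control replicate 3.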
